A study of Mus musculus with 31 samples.

Results

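The 9 genes Aqp4, Kcnj10, Kcnj16, Slc4a4, Gja1, Gjb6, Mlc1, Hepacam and Dag1 were followed through the RNA-seq libraries of an astrocyte study in mice. They were taken by gene symbol from 55401 genes in the deposited tables, and each symbol belonged to 1 gene ID. The 9 encode the water channel, potassium channels, bicarbonate cotransporter, connexins and anchoring proteins of the astrocyte endfoot. The study, whose title concerns an epigenetic memory of disease-associated astrocytes, injected cytokines or buffer into both lateral ventricles of C57Bl/6 mice, labelled female and 10 weeks old, and sorted astrocytes 18 to 24 hours after the last injection. The 2X cytokine group received IL-1β at 100 ng/mL with TNF-α at 50 ng/mL and the same again at day 7. The 2X PBS group received phosphate-buffered saline both times. Mice of the 1X cytokine group were given the cytokines at day 7 only, and mice of the 1X PBS group were given PBS at day 7 only. Each group had 3 libraries, and the labels do not say whether these came from separate or pooled animals. The short sample descriptions mention TNF-α alone, and they name no sort markers.

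An endfoot is the flattened end of an astrocyte process that wraps a brain capillary. Aquaporin-4 moves water there and is held in place by the dystroglycan complex, which links the astrocyte cytoskeleton to laminin and agrin in the basal lamina. Inwardly rectifying potassium channels take up potassium released by neurons, and gap junctions of connexin 43 and connexin 30 spread ions and metabolites between astrocytes. MLC1 and its adhesion partner GlialCAM sit at the junctions between endfeet and take part in cell volume regulation, and their loss causes a white-matter disease with swelling in humans.

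Every library held between 1878418 and 5521679 estimated counts, so 3 counts corresponded to 0.543 to 1.60 CPM (counts scaled to a common library size). The 9 genes lay far above that floor, from 235 estimated counts of Kcnj16 to 10732 of Gja1 in a library, and all 9 were among the 14490 genes tested. All 12 astrocyte identity genes were detected, with summed CPM from 6279 to 25156. Transcripts of other cells were present too, among them choroid plexus genes at 5339 to 40304 summed CPM. Lcn2, an acute-phase gene induced by IL-1β in astrocytes, went against the labels in all libraries but 1X cytokine replicate 1 and 1X PBS replicate 1. It was at 15.0, 2.26 and 1.20 CPM in the libraries labelled 2X cytokine and at 570, 363 and 425 CPM in those labelled 2X PBS. In the libraries labelled 1X cytokine it was at 797, 11.5 and 3.85 CPM, and in those labelled 1X PBS at 5.33, 1076 and 776 CPM. So replicate 1 of either 1X group did not resemble its companions under the label. The same was seen on the leading principal component of all genes, which held 45.4% of the variance, with 1X cytokine scores of 40.6, -30.2 and -40.0 and 1X PBS scores of -42.1, 68.6 and 68.1. Group names and directions below are those of the labels. Whether labels were exchanged was not tested, and an exchange of cytokine and PBS labels would turn the sign of the values between them. Member fold changes and ratios below that rest on these 2 libraries are given with them and after leaving them out, some as ranges. Fold changes of other genes between the 1X groups are from the fit without them.

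**Figure D1:**
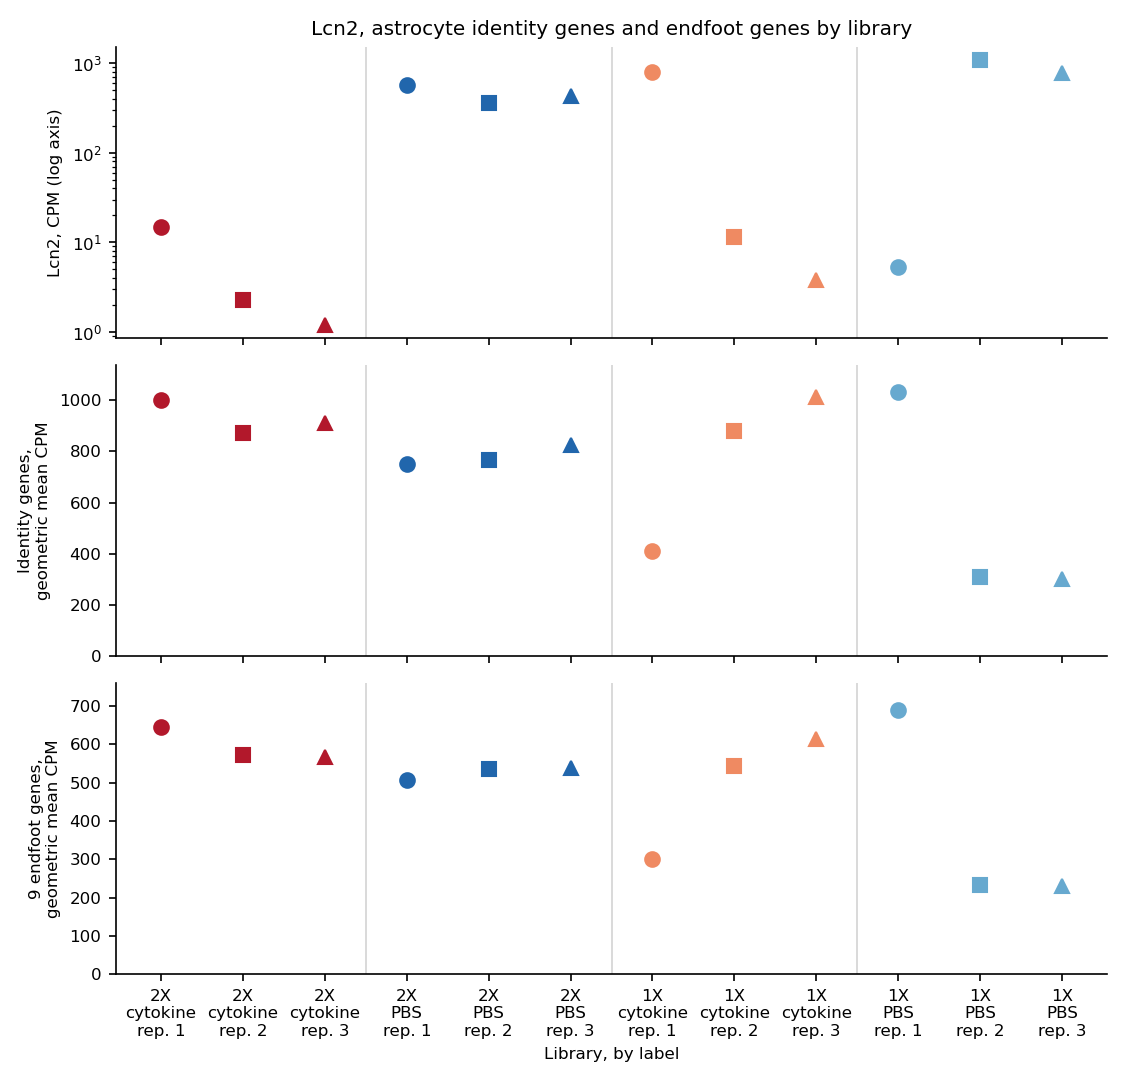
Lcn2 in CPM on a log axis (top), the geometric mean CPM of 11 astrocyte identity genes (middle) and of the 9 endfoot genes (bottom) in each of the 12 libraries, with marker shapes for replicates 1 to 3. Identity and endfoot genes are lowest in 1X cytokine replicate 1 and 1X PBS replicates 2 and 3, where Lcn2 is between 776 and 1076 CPM. The 2X PBS libraries, with Lcn2 at 363 to 570 CPM, lie nearer to the remaining libraries but below each of them. Their identity means are 750 to 826 against 874 to 1034, and their endfoot means 508 to 537 against 543 to 691.

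Upstream sequence is shown for 4 members whose start in the RefSeq promoter table (build GRCm38.p6) lay within 50 bases of the GENCODE M21 start of their most abundant transcript: both connexins and Kcnj10, which varied widely over the libraries, and Dag1, which varied least. Each run holds the 250 bases before the RefSeq start, 5′ to 3′ on the strand of the gene. The windows are chr10:56377050-56377299 (+ strand) for Gja1, chr14:57133612-57133861 (- strand) for Gjb6, chr1:172340960-172341209 (+ strand) for Kcnj10 and chr9:108263959-108264208 (- strand) for Dag1. Capitals mark each match to GGGNNNNNCC, a loose NF-kB pattern searched on both strands.
Gja1: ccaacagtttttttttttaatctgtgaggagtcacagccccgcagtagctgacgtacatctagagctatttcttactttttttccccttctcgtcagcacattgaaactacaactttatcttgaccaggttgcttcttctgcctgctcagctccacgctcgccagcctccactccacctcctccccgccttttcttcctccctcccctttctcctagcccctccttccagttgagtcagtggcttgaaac
Gjb6: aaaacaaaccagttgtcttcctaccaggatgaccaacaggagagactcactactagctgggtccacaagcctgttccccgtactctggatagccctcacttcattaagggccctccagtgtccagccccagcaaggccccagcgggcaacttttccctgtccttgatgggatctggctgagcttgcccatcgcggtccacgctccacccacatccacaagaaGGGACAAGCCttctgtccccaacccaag
Kcnj10: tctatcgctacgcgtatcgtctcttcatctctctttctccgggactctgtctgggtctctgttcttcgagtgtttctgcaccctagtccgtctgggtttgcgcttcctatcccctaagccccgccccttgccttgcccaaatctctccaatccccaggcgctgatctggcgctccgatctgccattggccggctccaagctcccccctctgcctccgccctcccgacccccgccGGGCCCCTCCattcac
Dag1: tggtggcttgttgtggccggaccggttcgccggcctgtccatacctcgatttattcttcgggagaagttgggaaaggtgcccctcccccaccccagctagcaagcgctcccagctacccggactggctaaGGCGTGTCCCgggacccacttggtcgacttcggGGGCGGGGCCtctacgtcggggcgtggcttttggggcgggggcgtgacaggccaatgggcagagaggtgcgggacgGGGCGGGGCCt
The pattern was found at 0 places in the Gja1 window, 1 in Gjb6, 1 in Kcnj10 and 3 in Dag1, and 45.8% of 32817 mouse promoter windows of this length held it. The windows differed in CpG content, with 6 CpG pairs in Gja1, 5 in Gjb6, 17 in Kcnj10 and 21 in Dag1, against a median of 6 over all windows. Kcnj16, whose window is not printed, had 7 CpG pairs and 0 matches. A STAT pattern (TTCNNNGAA), an NFI pattern (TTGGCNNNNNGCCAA) and a TATA box (TATAAA) had 0 matches in these 5 windows and were held by 7.01%, 0.0366% and 12.4% of all windows.

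Levels between genes are compared in deposited TPM (a value scaled to transcript length and library size), summed per gene, as means over the 12 libraries. Short transcripts weigh heavily in these sums. In 2X cytokine replicate 1 Gjb6-203, of 201 bases, gave 121 of the 692 TPM of Gjb6 from 0.944% of its estimated counts. Aqp4-205, of 1106 bases, gave 176 of the 389 TPM of Aqp4 there from 15.1% of its counts. Gja1 was the most abundant of the 9 at 952 TPM, ahead of Gjb6 at 497, Mlc1 at 427, Aqp4 at 282 and Hepacam at 271 TPM. Lower levels were found for Slc4a4 at 128, Dag1 at 98.3, Kcnj10 at 74.0 and Kcnj16 at 53.5 TPM. Within the 2X cytokine group the ranges of Gjb6 (536 to 692 TPM) and Mlc1 (516 to 581 TPM) overlapped. So did those of Aqp4 (333 to 389 TPM) and Hepacam (304 to 383 TPM), and those of Dag1 (102 to 123 TPM) and Kcnj10 (83.9 to 103 TPM). In the 2X PBS group none of these pairs overlapped, with Gjb6 at 478 to 547 and Mlc1 at 419 to 472 TPM. There Aqp4 was at 342 to 365, Hepacam at 257 to 274, Dag1 at 100 to 105 and Kcnj10 at 72.5 to 92.8 TPM. Compared within each library, Dag1 was above Kcnj10 in every one.

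Among libraries, the 9 genes shared a low point. For all 9 the 3 lowest CPM values were in 1X cytokine replicate 1, 1X PBS replicate 2 and 1X PBS replicate 3, an arrangement found in 10.8% of the 14490 genes tested. It is a description, with no test, because those libraries also stood apart in the measures above. In bulk RNA, fewer astrocytes in the sorted sample and less of a transcript per astrocyte cannot be told apart.

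**Figure D2:**
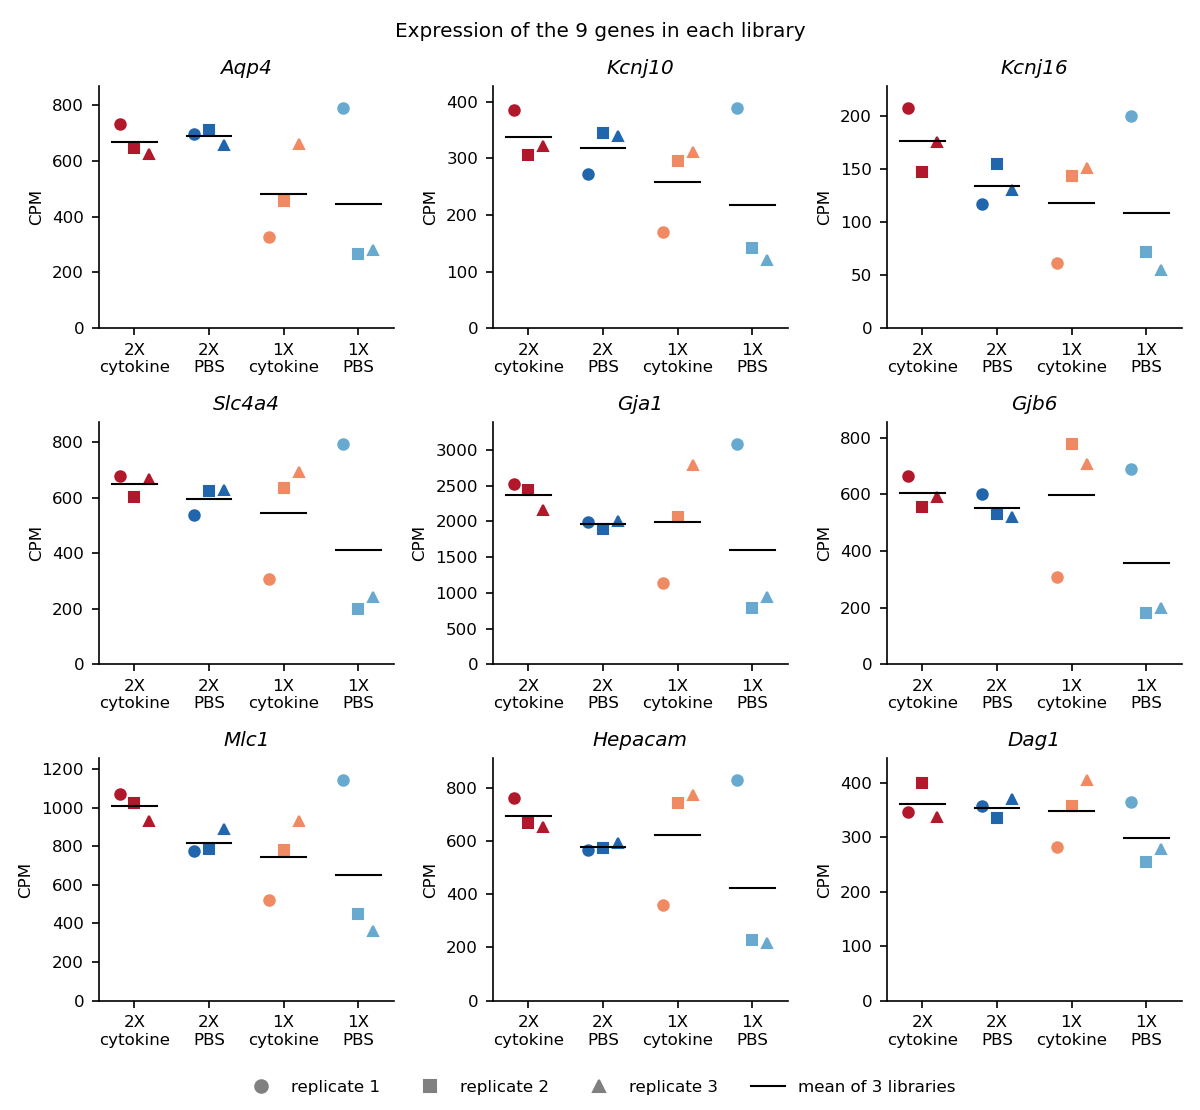
CPM of each of the 9 genes in each library, by group, with marker shapes for replicates 1 to 3 and a bar at the mean of 3 libraries. In every panel the circle of 1X cytokine and the square and triangle of 1X PBS are lowest, while the 2X groups lie close together.

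Aqp4, the water channel, was at 732, 646 and 623 CPM in the 2X cytokine libraries, against 696, 709 and 658 CPM in the 2X PBS libraries. It was at 327, 455 and 659 CPM in the 1X cytokine libraries, against 789, 266 and 279 CPM in the 1X PBS libraries. The 2X groups overlapped, and within each 1X group the highest library held more than the lowest by a wide margin. Aqp4 was the only member whose estimated 2X difference was below 0, with a log2 fold change of -0.05 ± 0.37 (SE, n = 3 libraries a group).

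Kcnj10, which encodes the potassium channel Kir4.1, was at 386, 306 and 323 CPM in the 2X cytokine libraries, against 273, 345 and 339 CPM in the 2X PBS libraries. The 1X cytokine libraries had 170, 295 and 310 CPM and the 1X PBS libraries 389, 141 and 121 CPM. Kcnj16 encodes Kir5.1, which forms channels together with Kir4.1. It was at 208, 148 and 176 CPM in the 2X cytokine libraries, against 118, 155 and 130 CPM in the 2X PBS libraries. With 1X cytokine it was at 61.4, 143 and 151 CPM, against 200, 71.8 and 54.5 CPM with 1X PBS. For both channel genes the groups of each comparison overlapped, for Kcnj16 in 2X by the lowest 2X cytokine library alone. Slc4a4, the sodium-bicarbonate cotransporter NBCe1 that helps set astrocyte pH, had 680, 602 and 666 CPM with 2X cytokine, against 537, 624 and 627 CPM with 2X PBS. It had 306, 637 and 692 CPM with 1X cytokine and 793, 199 and 243 CPM with 1X PBS, again with overlap.

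Gja1, which encodes connexin 43, was at 2529, 2438 and 2160 CPM in the 2X cytokine libraries, against 1989, 1889 and 2005 CPM in the 2X PBS libraries. The 1X cytokine libraries had 1134, 2063 and 2789 CPM, against 3081, 783 and 942 CPM in the 1X PBS libraries. The 2X groups did not overlap, and the 1X PBS group held both the highest and the lowest value of the 12. Gjb6, which encodes connexin 30, was at 666, 557 and 590 CPM with 2X cytokine, against 601, 531 and 521 CPM with 2X PBS. It was at 309, 777 and 707 CPM with 1X cytokine and at 691, 181 and 198 CPM with 1X PBS. Its groups overlapped in both comparisons, and its highest library held 4.29 times the CPM of its lowest, the largest such ratio of the 9.

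Mlc1 was at 1074, 1024 and 929 CPM in the 2X cytokine libraries, against 773, 784 and 889 CPM in the 2X PBS libraries. Hepacam, which encodes GlialCAM, the partner that brings MLC1 to astrocyte junctions, was at 761, 667 and 653 CPM with 2X cytokine, against 565, 572 and 591 CPM with 2X PBS. Neither gene overlapped between the 2X groups. In the 1X groups Mlc1 was at 524, 780 and 933 CPM with cytokine, against 1142, 447 and 360 CPM with PBS, and Hepacam at 358, 741 and 773 CPM with cytokine, against 827, 227 and 215 CPM with PBS. Both overlapped there.

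Dag1, which encodes the dystroglycan that anchors the endfoot to the basal lamina, varied least. It was at 347, 399 and 336 CPM with 2X cytokine and 356, 336 and 370 CPM with 2X PBS. It was at 282, 356 and 404 CPM with 1X cytokine and 364, 254 and 278 CPM with 1X PBS. The groups overlapped in every comparison, and the highest library held 1.59 times the CPM of the lowest. Over the 12 libraries the SD of its log2 CPM was 0.21, larger than that of 35.3% of the protein-coding genes tested with a mean CPM of at least 10. For the other 8 members the SD was between 0.53 (Mlc1) and 0.71 (Gjb6), larger than that of 88.8% to 94.9% of those genes.

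A repeated cytokine injection was compared with a repeated PBS injection. These groups differed at both injections, so the comparison cannot set the second challenge apart from the first. Gja1, Mlc1 and Hepacam were higher in every 2X cytokine library than in any 2X PBS library, with group means of 2376 ± 192 against 1961 ± 62.7 CPM for Gja1, 1009 ± 73.2 against 815 ± 63.6 CPM for Mlc1 and 694 ± 58.7 against 576 ± 13.6 CPM for Hepacam (SD, n = 3 each). This complete separation was found for 3 of 9 members, and for 11.2% of all genes in that direction and 25.3% in either. In edgeR's quasi-likelihood fit of all 12 libraries 0 of 9 members passed a Benjamini-Hochberg adjusted p of 0.05, where 0.0345% of genes did, and 0 members had an unadjusted p under 0.05. DESeq2 also called 0 members. Among all genes 1402 had such a p and DESeq2 called 114. The largest fold changes were 0.40 ± 0.44 for Kcnj16, 0.31 ± 0.36 for Mlc1, 0.28 ± 0.45 for Gja1 and 0.27 ± 0.45 for Hepacam (log2, SE), and the median of the 9 was 0.13 beside -0.00340 over all genes.

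The shared fit carries the wide spread of the 1X libraries, with a common biological coefficient of variation of 0.237, against 0.114 in a fit of the 6 2X libraries alone. In that narrower fit the estimates barely moved and 4 of 9 members had an unadjusted p under 0.05, as did 2865 of 13765 genes. The log2 fold changes were 0.32 ± 0.10 for Mlc1 (edgeR adjusted p = 0.0654), 0.29 ± 0.09 for Gja1 (0.0783), 0.28 ± 0.09 for Hepacam (0.0896) and 0.40 ± 0.13 for Kcnj16 (0.10), each positive in a comparison where 7.74% of genes were called. By that fit 0 of 9 members passed, as in the fit of 10 libraries introduced below, where 7.02% of genes were called. Aqp4 at -0.03 ± 0.09 and Dag1 at 0.04 ± 0.09 had the smallest estimates. Of 12 tested identity genes 4 were higher and 1 lower in that fit. The same groups differed in Gfap, at 150, 119 and 113 CPM with 2X cytokine against 1141, 1043 and 1095 CPM with 2X PBS, and in monocyte, macrophage and neutrophil genes, of which 4 of 7 tested were lower, at 5.40 to 85.3 summed CPM with 2X cytokine against 203 to 243 with 2X PBS. Their part in the member differences was not tested.

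A single challenge was examined by setting the 1X cytokine libraries against the 1X PBS libraries. Of the members, 0 of 9 were called by edgeR with all 12 libraries and 0 by DESeq2. Among all genes 0% were called by edgeR, 783 of 14490 reached an unadjusted p below 0.05 and DESeq2 gave 2 calls. Estimates were positive for 9 of 9 members, from 0.11 ± 0.37 for Aqp4 to 0.75 ± 0.47 for Gjb6, with a median of 0.25. Complete separation was found for 0 of 9 members and 6.18% of genes. The counts changed with the libraries used. Without 1X PBS replicate 1 alone edgeR called 7 members, all but Dag1 and Kcnj16, among 1141 of 15106 genes. Without 1X cytokine replicate 1 alone it called 0.

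Without both of these libraries, edgeR called 9 of 9 members, all higher in 1X cytokine replicates 2 and 3 than in 1X PBS replicates 2 and 3, in a fit of 10 libraries where 23.5% of 14848 genes were called and 12% were called higher. Gjb6 had a log2 fold change of 1.99 ± 0.13 (edgeR adjusted p = 1.96e-07) and Hepacam of 1.80 ± 0.11 (1.68e-07). Slc4a4 rose by 1.61 ± 0.14, Gja1 by 1.51 ± 0.15, Kcnj16 by 1.25 ± 0.19, Kcnj10 by 1.23 ± 0.15, Mlc1 by 1.11 ± 0.14 and Aqp4 by 1.05 ± 0.15 (log2, SE, 2 libraries a group). Dag1 had the smallest change at 0.54 ± 0.12 (edgeR adjusted p = 0.00574). The median of the 9 was 1.25, beside 0.00268 over all genes. The libraries left out were picked from values of these data, so the p-values compare the libraries that remained and not the schedules as labelled.

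The astrocyte identity genes moved too, with 11 of 12 higher, 1 lower and a median of 1.59. So did markers of other cells, and in these lists 0 genes were at 0 in every library. In 1X cytokine replicates 2 and 3 the 8 monocyte, macrophage and neutrophil genes, led by S100a9 and S100a8, summed to 11.5 and 20.3 CPM, against 720 and 934 CPM in 1X PBS replicates 2 and 3, and 6 of 7 tested were lower. The 8 choroid plexus genes, led by Ttr and Enpp2, summed to 17549 and 30234 CPM against 35754 and 36772 CPM with 0 of 8 called, and the 8 endothelial genes, led by Cldn5 and Slco1a4, to 41.9 and 64.3 CPM against 149 and 205 CPM with 6 of 8 lower. The 8 ependymal genes summed to 423 and 529 CPM against 849 and 720 CPM with 6 of 8 lower. The 6 erythrocyte genes, led by Hba-a2 and Hbb-bs, summed to 927 and 2591 CPM against 15702 and 64783 CPM with 5 of 6 lower. The 2 libraries left out lay apart from their companions in the monocyte list too, with 320 CPM in 1X cytokine replicate 1 and 16.4 CPM in 1X PBS replicate 1. By Lcn2 they went with their labels, while the 1X libraries kept in this fit went against theirs. The part of the other cells in the endfoot gene differences was not tested.

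**Figure D3:**
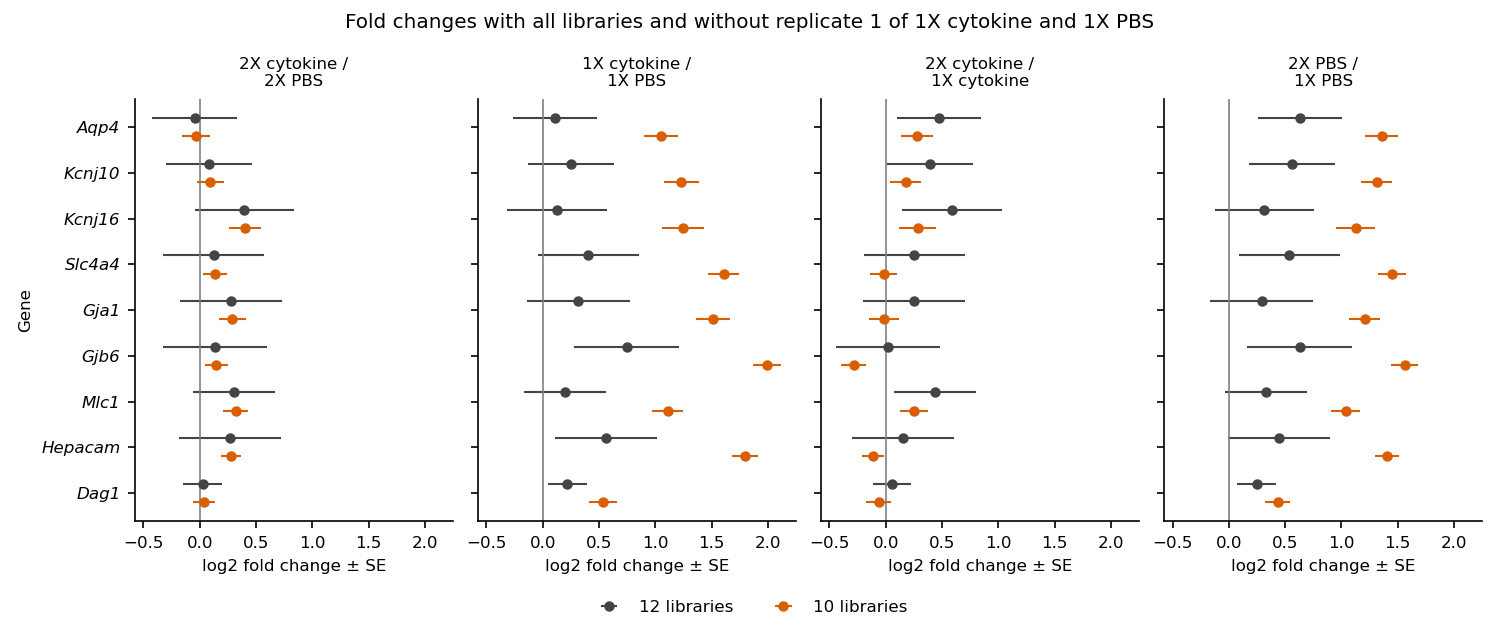
Log2 fold change with its standard error for each gene in 4 comparisons, from edgeR fits of all 12 libraries (grey) and of 10 libraries without replicate 1 of 1X cytokine and of 1X PBS (orange). The orange points of 1X cytokine against 1X PBS lie between 0.54 and 1.99 and those of 2X PBS against 1X PBS between 0.43 and 1.56, while the 2X estimates differ little between fits.

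The number of injections was compared within each treatment. With 2X cytokine against 1X cytokine, edgeR called 0 of 9 members with 12 libraries, where 0.0276% of genes were called, and 0 of 9 with 10 libraries, where 0.0202% were called. DESeq2 called 0 members, and 0 of 9 were completely separated, against 12.5% of genes. The estimates ranged from 0.02 ± 0.46 (Gjb6) to 0.59 ± 0.44 (Kcnj16) with 12 libraries and from -0.28 ± 0.11 (Gjb6) to 0.28 ± 0.16 (Kcnj16) with 10. There 1 of 9 members and 1421 of 14848 genes had an unadjusted p under 0.05, against 0 members and 1015 of 14490 genes in the fit of 12. With 2X PBS against 1X PBS edgeR called 0 of 9 members with 12 libraries, 0 reached an unadjusted p below 0.05 and DESeq2 gave 0 calls. In the edgeR fit of 12 libraries the estimates were positive for 9 of 9 members, from 0.25 to 0.63 with a median of 0.45 (log2). Among all genes edgeR called 0%, 914 reached an unadjusted p below 0.05, DESeq2 gave 17 calls, and 0 members and 11.4% of genes were completely separated. With 10 libraries it called 9 of 9, all higher in 2X PBS, where 18.6% of genes were called and 10.1% were called higher. As above, the libraries left out were picked from values of these data, so these calls compare only the libraries that remained. Gjb6 was higher by 1.56 ± 0.12, Slc4a4 by 1.45 ± 0.13, Hepacam by 1.40 ± 0.11 and Aqp4 by 1.36 ± 0.14, and Dag1 by 0.43 ± 0.11 (log2, SE). Without 1X PBS replicate 1 alone, 7 of 9 were called, among 1116 of 15106 genes. In the fit of 10 libraries 12 of 12 astrocyte identity genes were higher in 2X PBS too. Lower there were 5 of 8 endothelial, 5 of 6 erythrocyte, 5 of 8 oligodendrocyte, 3 of 8 ependymal, 2 of 8 choroid plexus and 3 of 7 tested monocyte, macrophage and neutrophil genes, and their part in the member differences was not tested.

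The difference between the 2X and 1X cytokine responses was tested as an interaction. With 12 libraries edgeR called 0 of 9 members and 0% of genes, 0 members and 754 genes reached an unadjusted p below 0.05, and DESeq2 gave 0 members and 13 genes. The median estimate was -0.17, with Gjb6 lowest at -0.61 ± 0.65 and Kcnj16 highest at 0.27 ± 0.62. With 10 libraries 8 of 9 members were called, all with a lower fold change in 2X than in 1X, where 9.33% of genes were called and 6.12% in that direction. The libraries left out were picked from values of these data. These calls therefore describe the libraries that remained and not the schedules as labelled. The difference was -1.84 ± 0.16 for Gjb6, -1.52 ± 0.14 for Hepacam, -1.47 ± 0.17 for Slc4a4 and -1.22 ± 0.19 for Gja1 (log2, SE). Dag1, at -0.49 ± 0.16, missed the threshold (edgeR adjusted p = 0.0685). The estimates of Kcnj16 and Mlc1 were positive with 12 libraries, at 0.27 and 0.11, and negative with 10, at -0.84 and -0.79. Without 1X PBS replicate 1 alone 0 members were called, among 17 of 15106 genes. In the fit of 10 libraries 11 of 12 identity genes were called in the same direction as the members. Called in the opposite direction were 5 of 8 endothelial, 5 of 8 ependymal, 5 of 6 erythrocyte, 1 of 8 oligodendrocyte and 2 of 7 tested monocyte, macrophage and neutrophil genes, and their part was not tested.

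The endfoot genes were also set against the other astrocyte genes of the same library, which cancels any factor common to all astrocyte genes of a library. The geometric mean CPM of 11 identity genes (the list without Gfap, which differed between groups) was 1000, 874 and 912 in the 2X cytokine libraries, 750, 768 and 826 in 2X PBS, 411, 880 and 1013 in the 1X cytokine libraries and 1034, 311 and 301 in 1X PBS. The 9 members gave 644, 572 and 568 with 2X cytokine, 508, 535 and 537 with 2X PBS, 300.2, 543 and 614 with 1X cytokine and 691, 233 and 231 with 1X PBS, low in the same 3 libraries. Hepacam stayed closest to the identity genes. Its log2 CPM spanned 1.94 over the 12 libraries and its log2 level relative to the identity mean spanned 0.28. The span also narrowed for Slc4a4, at 1.99 and 0.34, for Gja1, at 1.98 and 0.42, for Kcnj10, at 1.68 and 0.57, and for Gjb6, at 2.10 and 0.60. It was 1.92 and 0.63 for Kcnj16, 1.66 and 0.70 for Mlc1 and 1.57 and 0.85 for Aqp4.

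For Dag1 the span widened, at 0.67 in log2 CPM and 1.41 relative to the identity genes. Its relative level was highest in the 3 libraries where all members, Dag1 included, were lowest in CPM. It was at -0.54 in 1X cytokine replicate 1 and -0.29 and -0.11 in 1X PBS replicates 2 and 3, against -1.53 to -1.07 in the other 9. The identity mean was 411, 311 and 301 in those 3 libraries, so a gene that varies little rises relative to it. Aqp4 relative to the identity genes was at -0.45, -0.43 and -0.55 with 2X cytokine, below all 2X PBS libraries at -0.11, -0.11 and -0.33. Its CPM overlapped between these groups, while the identity mean was 874 to 1000 with 2X cytokine against 750 to 826 with 2X PBS. All other members overlapped in this relative measure, and the share of all genes so separated was not computed. The lowest relative value of Aqp4, -0.95, was in 1X cytokine replicate 2, which was not among its 3 lowest libraries in CPM. These relative levels are descriptions with no test.

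**Figure D4:**
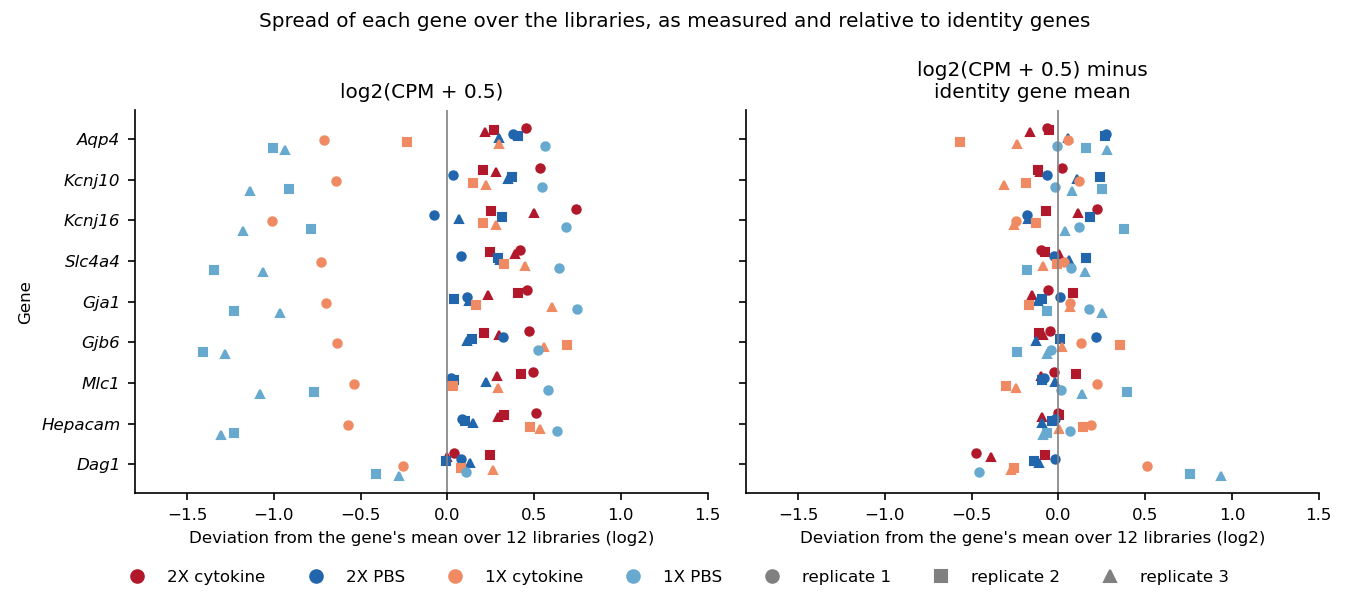
Deviation of each gene from its own mean over the 12 libraries, as log2(CPM + 0.5) on the left and after subtracting the mean of 11 astrocyte identity genes on the right, with colours for groups and shapes for replicates. On the right 8 genes draw together, Hepacam to a span of 0.28, while Dag1 spreads to 1.41.

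Proteins that work as pairs were compared as ratios of TPM within a library, which cancel library scaling, with an exact two-sided permutation test of 3 against 3 log2 ratios that cannot give a p under 0.1. Over 4 ratios and 4 comparisons, 16 tests in all, none passed. The Kcnj16 to Kcnj10 ratio was 0.813, 0.728 and 0.864 with 2X cytokine, against 0.653, 0.674 and 0.579 with 2X PBS, with no overlap. Its mean log2 ratio was higher by 0.33 in 2X cytokine (exact permutation p = 0.1, adjusted p = 0.32). The Gjb6 to Gja1 ratio was 0.549, 0.737 and 0.484 with 1X cytokine, against 0.430, 0.428 and 0.368 with 1X PBS. These groups did not overlap although both include a library that stands apart, and the mean log2 ratio was higher by 0.51 in 1X cytokine (exact permutation p = 0.1, adjusted p = 0.32). Without both replicate 1 libraries that difference was 0.59 (exact permutation p = 0.333, the smallest that 2 against 2 allow). The Aqp4 to Dag1 ratio was 3.63, 2.70 and 3.55 with 2X cytokine, against 2.07, 1.96 and 2.13 with 1X cytokine. It was higher by 0.67 on the log2 scale (exact permutation p = 0.1, adjusted p = 0.32), and by 0.68 without 1X cytokine replicate 1 (exact permutation p = 0.2). From estimated counts in place of TPM the difference was 0.46 (exact permutation p = 0.2). In 2X PBS against 1X PBS the mean log2 ratio of Gjb6 to Gja1 was higher by 0.41 and that of Kcnj16 to Kcnj10 differed by -0.22, each also at an exact permutation p of 0.1. Without 1X PBS replicate 1 these differences were 0.44 and -0.19 (exact permutation p = 0.2 each). In the same comparison Aqp4 to Dag1 was higher by 0.60 and Mlc1 to Hepacam differed by -0.24 (exact permutation p = 0.4 each). Without 1X PBS replicate 1 these 2 differences were 0.99 and -0.41 (exact permutation p = 0.2 each). The Mlc1 to Hepacam ratio was 1.52, 1.87 and 1.64 with 2X cytokine and 1.63, 1.56 and 1.73 with 2X PBS, with overlap and a log2 difference of 0.03 (exact permutation p = 0.8). It was 1.62, 1.18 and 1.34 with 1X cytokine, against 1.51, 2.32 and 2.04 with 1X PBS, with overlap and a log2 difference of -0.50 (exact permutation p = 0.2, adjusted p = 0.457), or -0.79 without both replicate 1 libraries (exact permutation p = 0.333). Between 2X cytokine and 1X cytokine its log2 difference was 0.29 (exact permutation p = 0.2), or 0.41 without 1X cytokine replicate 1 (exact permutation p = 0.2).

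**Figure D5:**
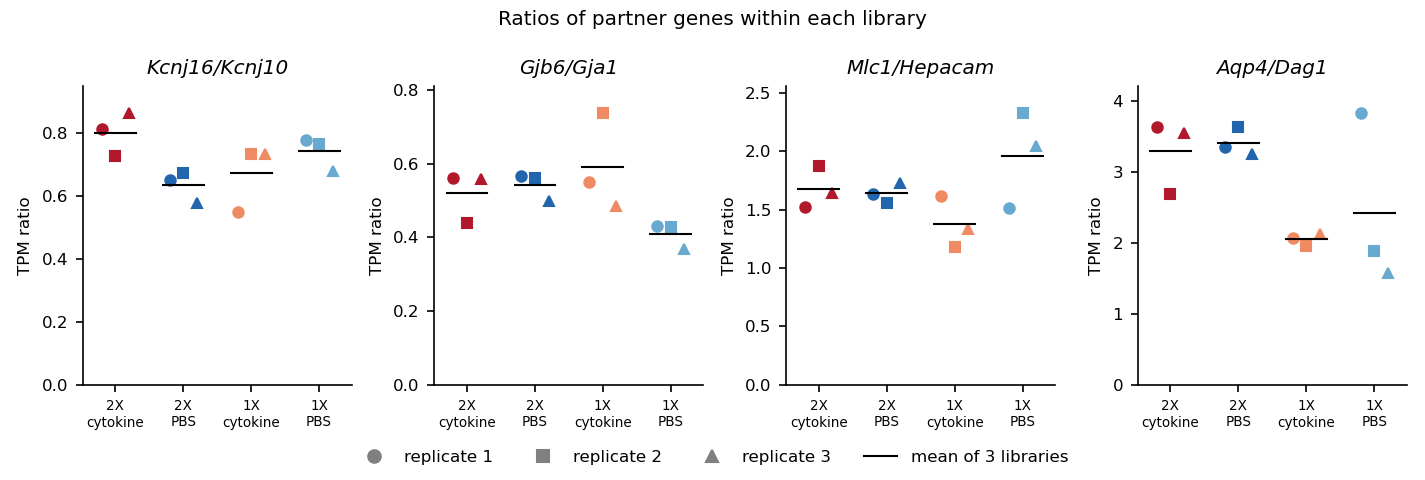
TPM ratio of 4 gene pairs in each library, by group, with marker shapes for replicates 1 to 3 and a bar at the mean of 3 libraries. The Kcnj16 to Kcnj10 ratio is between 0.728 and 0.864 in the 2X cytokine libraries and between 0.579 and 0.674 in the 2X PBS libraries.

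The transcript tables listed 52 transcripts of the 9 genes. A single transcript held nearly all estimated counts of Gja1 (Gja1-201, 99.1% to 99.9% over the libraries) and Hepacam (Hepacam-201, 97.1% to 100%), and Kcnj10 had 1 transcript. Slc4a4-207 held a median of 92.5%, Mlc1-201 of 94.3% and Gjb6-201 of 88.4%. Aqp4 was divided, with medians of 48.8% for Aqp4-201, 34.2% for Aqp4-212 and 13.9% for Aqp4-205, and Dag1-204 held a median of 57.4%. Kcnj16-201 held 28.6% to 100%, with up to 71.4% assigned to Kcnj16-202, whose 3623 bases compare with 3671 for Kcnj16-201. These shares are estimates of the quantification model with no error given, so transcript differences between groups were not tested. In GENCODE M21 on GRCm38 Gja1 lies at chr10:56377330-56402513, Gjb6 at chr14:57123303-57133611, Kcnj10 at chr1:172341210-172374085, Kcnj16 at chr11:110968033-111027968, Mlc1 at chr15:88955884-88979007, Hepacam at chr9:37367351-37386575 and Dag1 at chr9:108204634-108263958.

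Genes that work beside the members were followed in 5 lists. In the fit of all 12 libraries edgeR called 0 genes of these lists in each of the 5 comparisons. Genes named here beyond the rule in the methods were chosen after their values were seen. The fit of the 6 2X libraries alone, where 2.43% of genes were called higher and 5.31% lower, called a few. Of 22 tested genes of the dystroglycan complex and basal lamina 2 were lower in 2X cytokine, the laminin chains Lama4 (-0.97 ± 0.18, edgeR adjusted p = 0.00562) and Lamb1 (-0.63 ± 0.15, 0.0222). The abundant basal lamina chain Lamb2 and the dystrophin-complex genes Dtna and Dmd were not called, at 0.13 ± 0.12, 0.36 ± 0.11 and 0.12 ± 0.10. In the same fit 4 of 8 mural and fibroblast genes were lower, with a median of -0.42 for that list, and their part was not tested. The list summed to 3212 to 4666 CPM with 2X cytokine against 3829 to 4620 CPM with 2X PBS. With the 10 libraries 3 of the 22 were higher and 6 lower in 1X cytokine, where 1788 of 14848 genes were called higher and 1701 lower. The same background applies to the counts with 10 libraries in the lists below. Dtna, which encodes the dystrobrevin bound to dystrophin, was among the higher at 1.04 ± 0.14 and Lama4 among the lower at -1.27 ± 0.22 (log2, SE).

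Of 10 tested aquaporins, connexins and their partners, 2 were higher in 2X cytokine and 1 lower. Gjc3 (0.82 ± 0.14, edgeR adjusted p = 0.00369) and Gjb1 (0.66 ± 0.16, 0.0280), connexins of oligodendrocytes, rose, and Gjb2 (-0.57 ± 0.15, 0.0411), connexin 26, fell. Oligodendrocyte genes moved the same way, at 5564 to 6673 summed CPM with 2X cytokine against 2956 to 4282 with 2X PBS for the 8 genes of that list, of which 5 were higher, and their part was not tested. Gja4, a connexin of vessel walls, and Aqp1, the water channel of the choroid plexus, were not called at -0.51 ± 0.16 and -0.05 ± 0.18. With 10 libraries 3 of the 10 were higher and 1 lower in 1X cytokine, Gjc3 at 0.89 ± 0.20 and Gja4 at -0.95 ± 0.27 among them.

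Of 19 tested potassium and sodium transporters 1 was lower in 2X cytokine, Atp1b1 (-0.48 ± 0.11, edgeR adjusted p = 0.0232), a subunit of the sodium pump. Atp1b2, another subunit of that pump, was not called, at -0.10 ± 0.09. With 10 libraries 8 of the 19 were higher in 1X cytokine and 1 lower, among them Atp1b2 (1.29 ± 0.12), while the pump regulator Fxyd1 stayed at 0.06 ± 0.14.

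Of 13 bicarbonate and acid transport genes 1 was higher in 2X cytokine, the carbonic anhydrase Car14 (0.57 ± 0.11, edgeR adjusted p = 0.00683), and 2 were lower, the lactate exporter Slc16a3 (-2.79 ± 0.27, 4.65e-05) and Slc4a10, a bicarbonate transporter of the choroid plexus (-0.62 ± 0.13, 0.0101). Slc16a3 was at 6.43, 4.52 and 2.40 CPM with 2X cytokine against 36.4, 28.5 and 27.5 CPM with 2X PBS. With 10 libraries 2 of the 13 were higher and 2 lower in 1X cytokine, near the shares over all genes, with Slc16a3 lower by 4.54 on the log2 scale. Of 10 tested volume regulation genes and Mlc1 partners 2 were lower in 2X cytokine. These were Lrrc8a (-0.53 ± 0.08, edgeR adjusted p = 0.00227), the core subunit of volume-regulated anion channels, and Best1 (-1.65 ± 0.45, 0.0430), a chloride channel at 5.63 CPM or less in these libraries. With 10 libraries 4 of the 10 were higher in 1X cytokine and 0 lower, among them Gpr37l1 at 1.67 ± 0.15 and Gprc5b at 1.13 ± 0.13, receptors that associate with MLC1, and Lrrc8a at 1.00 ± 0.15. Lrrc8a was at 370, 350 and 334 CPM with 2X cytokine against 513, 504 and 513 CPM with 2X PBS.

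The genes whose pattern over the 12 libraries was most like each member were found by the root mean square difference of centred log2 CPM among 10494 protein-coding genes with a mean CPM of at least 10. Slc4a4 was nearest to Plpp3, a lipid phosphatase, at 0.09. Kcnj10 was nearest to Igdcc4 at 0.08, Aqp4 to Dhcr7, an enzyme of cholesterol synthesis, at 0.10, and Gja1 to Hacd3 at 0.09. Gjb6 lay nearest to the fatty acid transporter Slc27a1 at 0.10, Kcnj16 to Sybu at 0.10, and Mlc1 to the pyruvate carboxylase gene Pcx at 0.10. For 8 members the nearest other member ranked between 3 (Hepacam for Gjb6, at 0.12) and 20 (Kcnj10 for Kcnj16, at 0.17). For Dag1, nearest to Clcc1 at 0.07, the nearest other member was Mlc1 at rank 6355 and 0.34. These likenesses are descriptions over 12 libraries, with no test.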

How the data were processed

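The 12 RNA libraries were made with SMART-Seq2, per the labels' protocols; the other samples of the 31 in the series, from ATAC-seq, were not analysed here. The authors quantified reads with kallisto 0.46.1 on a GRCm38 transcriptome, per the labels' protocols, and the deposited tables give estimated counts, TPM and transcript lengths for 142604 transcripts a library. The labels also name DESeq2 with apeGLM for the authors' own tests; no label states the strand. Estimated counts were summed per gene, rounded and tested with edgeR 4.0.16 (filterByExpr, TMM, quasi-likelihood F test, 1 coefficient per group, R 4.3.3), with Benjamini-Hochberg adjustment over 14490 genes and a threshold of 0.05. CPM used TMM-scaled library sizes, and log2 levels a pseudocount of 0.5. SE is the log2 fold change over the square root of F. Partner ratios used the deposited TPM, per length, with SciPy 1.17.1.

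DESeq2 1.42.0, other scaling, filters, a replicate block, a fit restricted to the groups compared and fits with libraries left out were alternatives. On simulated counts the fit recovered 38 of 100 genes changed 2-fold and 85 of 100 changed 4-fold in 2X cytokine against 2X PBS (14268 genes, 4 false calls), and 43 and 88 of 100 in 1X cytokine against 1X PBS (14276 genes, 7 false calls). Genes were simulated independently around a mean common to all libraries, apart from the changes set. No simulated library stood apart from its group as some do here, so these recoveries need not hold for these data. Members and lists were chosen with earlier results of these data known. Named were all 9 members, Lcn2 and Gfap, up to 4 genes of each pathway list by mean TPM and up to 3 by unadjusted p in 2X, the 2 leading genes of another cell type, and the 2 genes most like a member; some genes under this rule are not reported here. The labels do not say that replicates are separate animals, so each p-value rests on library-to-library spread that could be technical; without molecular identifiers the counts include PCR copies and floors cover counting error only. Positions are from GENCODE M21 where the versioned gene ID was the same, as for 98.1% of genes; Aqp4 and Slc4a4 were not among them.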

Additional observations from a re-analysis of the deposited data

How the results depend on the processing

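Member differences of the size estimated in 2X were not called in any setting, and the 1X result turned on the replicate 1 libraries. Here 2X and 1X stand for cytokine against PBS within that schedule. DESeq2 called 114 genes in 2X, 2 in 1X, 8 in 2X cytokine against 1X cytokine, 17 in 2X PBS against 1X PBS and 13 in the difference of responses, beside 5, 0, 4, 0 and 0 by edgeR. Without a low-count filter these counts were 460, 251, 193, 97 and 70. In 2X cytokine against 1X cytokine 0 genes were called at a mean CPM of at least 10, with the replicate block and with the libraries of the comparison alone. With the replicate block 2 genes were called in 2X. Deviations from the group means correlated between -0.62 and 0.16 for same-numbered libraries of different groups. Replicate 1 of either 1X group stood apart from its companions and weighs on these values. They therefore cannot show whether the numbers pair libraries. The libraries of the comparison alone gave 1065 genes in 2X. Members called stayed at 0 in these settings. Without replicate 1 of both 1X groups, chosen from values of these data, 1042, 3489, 3, 2759 and 1386 genes and 0, 9, 0, 9 and 8 members were called. Leaving out each library in turn gave 0 to 125 genes in 2X, 0 to 1141 in 1X, 0 to 3 in 2X cytokine against 1X cytokine, 0 to 1116 in 2X PBS against 1X PBS and 0 to 17 in the difference, and 0 to 7 members in 1X and in 2X PBS against 1X PBS. The upper counts came without 1X PBS replicate 1, except in 2X cytokine against 1X cytokine, where it came without 2X cytokine replicate 1.

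Some small log2 estimates changed sign over the libraries left out. In 2X these were Aqp4 (-0.093 to 0.012), Kcnj10 (-0.0058 to 0.17), Dag1 (-0.036 to 0.087) and the ratios of Gjb6 to Gja1 (-0.13 to 0.049), Mlc1 to Hepacam (-0.053 to 0.10) and Aqp4 to Dag1 (-0.14 to 0.074). In 1X they were Aqp4 (-0.16 to 0.84), Gja1 (-0.0070 to 1.23), Kcnj10 (-0.035 to 1.00), Kcnj16 (-0.20 to 0.92), Mlc1 (-0.089 to 0.91) and the Aqp4 to Dag1 ratio (-0.39 to 0.25, with 0.025 from estimated counts and 0.24 without both replicate 1 libraries). The Kcnj16 to Kcnj10 ratio was 0.022 without both, against -0.15 with all. In 2X cytokine against 1X cytokine they were Gja1 (-0.017 to 0.58, -0.016 without both), Slc4a4 (-0.019 to 0.47, -0.018 without both), Hepacam (-0.11 to 0.35, -0.11 without both), Dag1 (-0.062 to 0.19, -0.061 without both), Gjb6 (-0.28 to 0.26, -0.28 without both and -0.051 with the replicate block) and the Gjb6 to Gja1 ratio (-0.30 to 0.000517). In 2X PBS against 1X PBS they were Gja1 (-0.032 to 1.21) and Kcnj16 (-0.0082 to 1.12). In the difference they were Aqp4 (-0.87 to 0.13), Gja1 (-0.94 to 0.31), Kcnj10 (-0.90 to 0.12), Slc4a4 (-1.18 to 0.067), Hepacam (-1.24 to 0.024), Kcnj16 (-0.51 to 0.60, -0.84 without both) and Mlc1 (-0.59 to 0.40, -0.79 without both). The cause was not tested.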
